A study of Mus musculus with 9 samples.

Results

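The interleukin-6 (IL-6) cytokine family was examined in B.END3 cells, an endothelial line derived from mouse brain, after porfimer sodium-mediated photodynamic therapy (PDT), in which a porphyrin photosensitizer produces reactive oxygen species under red light. The family is represented here by 10 genes of the 54532 listed genes. They were taken by name: the ligands Il11, Il6, Lif and Clcf1, the receptors Il6st, Il11ra1, Lifr and Osmr, the transcription factor Stat3 and the feedback inhibitor Socs3. Il11 was selected on its measured rise at both light doses, so its differences from the control group are described here without a test. The other 9 genes were chosen for their function, although earlier results of these data were known at that time.

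RNA sequencing covered 9 libraries. Untreated cells (Ctrl, 3 libraries) were compared with cells given 300 µg/mL porfimer sodium for 90 min and then laser light of 635 nm at 100 mW/cm2, up to a light dose of 10 J/cm2 (Ep1, 3 libraries) or 20 J/cm2 (Ep2, 3 libraries). All libraries came from the same cell line, recorded as of C57BL/6 origin, a strain that was not checked here. No sequenced group received the photosensitizer alone or the light alone. The time between light and lysis is not given in the sources used here. The labels call the cells brain microvessel endothelial cells of mouse, while the culture protocol calls them rat cells.

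Cytokines of this family bind receptor chains such as Il11ra1 for IL-11, Il6ra for IL-6, Lifr for LIF and Osmr for oncostatin M. They signal through the shared chain gp130, the product of Il6st. Receptor-bound Janus kinases then phosphorylate STAT3, which moves to the nucleus and activates genes that include Socs3, and the Socs3 protein in turn blocks gp130 signaling. In vessels, the family takes part in inflammation, endothelial activation and tissue repair, and IL-11 is known as a stromal cytokine released under stress and in fibrosis.

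The level of each gene was given in FPKM, a count of fragments divided by gene length and by the depth of the library, which allows genes to be compared per length. The fragments behind these values could be recovered, and the libraries held between 16240688 and 19509225 fragments on genes. Within each group, the counts of any pair of libraries were farther apart than counting error allows (chi-square of at least 2.81 per degree of freedom), and precision is therefore limited by the spread between libraries. Ep2 replicate 1 stood farthest from its group, at 10.1 and 15.3 per degree of freedom from the other Ep2 libraries against 5.00 between those, and values without it are given wherever it changed the call of a family gene. The labels do not say that the libraries of a group came from separate cultures, and p-values measure only the spread between these libraries. The share of fragments from the mitochondrial genome was 1.90% to 1.99% in Ctrl, at most 2.08% in Ep1 and 2.04% to 2.49% in Ep2.

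The labelled cell type was only partly visible in the data. Of 12 endothelial marker genes, 9 averaged under 1 FPKM, and Cldn5, Emcn and Erg held at most 3 fragments in every library. Pecam1 averaged 0.143 FPKM and Cdh5 0.857 FPKM in Ctrl, and Flt1 was the most abundant marker at 6.90 FPKM. Krt8, a keratin of simple epithelia, averaged 628 FPKM over the libraries. Of 8 epithelial markers, 4 averaged under 1 FPKM as well (Krt7, Cdh1, Cldn4 and Cldn7), with Krt7 at most 3 fragments in every library. The summed level of the 12 endothelial markers was 11.3 to 11.9 FPKM in Ctrl, 11.3 to 12.9 in Ep1 and 14.3 to 15.4 in Ep2, and that of 8 epithelial markers was 1029 to 1081 in Ctrl, 937 to 1041 in Ep1 and 1155 to 1373 in Ep2. Of 6 fibroblast markers, 5 averaged under 1 FPKM (Lum and Postn at most 3 fragments in every library), and their sum was 7.56 to 7.69 FPKM in Ctrl, 6.27 to 7.20 in Ep1 and 7.14 to 8.35 in Ep2. Of 6 macrophage markers, 5 averaged under 1 FPKM as well, with Ptprc, Adgre1, Itgam and Aif1 at most 3 fragments in every library, and Cd14 carried most of a sum of 9.90 to 11.8 FPKM. Of the 3 endothelial markers that passed the filter, Flt1 alone was called, at 6.90 FPKM in Ctrl and 10.9 in Ep2 (log2 difference 0.59, adjusted p = 9.67e-05 in limma), and it carried the rise of that sum, while Egfl7 averaged 2.09 FPKM in Ctrl and 1.65 in Ep2 (adjusted p = 0.228) and Eng 1.32 and 1.13 (adjusted p = 0.274). Of the 4 epithelial markers that passed, 3 rose in Ep2 compared to Ctrl (Epcam, Krt18 and Krt19). Over all tested genes, 53.2% were called there, 23.9% higher. Epcam reached the filter only through its Ep2 libraries (2.03, 1.68 and 1.59 FPKM), so its rise was partly fixed by the filter. The part of the cell type markers in the Ep2 results was not tested. In bulk RNA, fewer cells that express a gene and less RNA per cell cannot be told apart.

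Promoter sequences are shown first for Il11, the gene selected for its rise, Lif, the most abundant ligand in Ctrl, and Socs3, the feedback gene. RefSeq windows (build GRCm38.p6) were found for 9 of the 10 genes, 12 windows in all, and the 250 bases before each transcription start were searched on both strands for the AP-1 motif TGANTCA, the STAT motif TTCNNNGAA and the cAMP response element TGACGTCA. Sequences read 5′ to 3′ on the strand of the gene, and capitals mark a match.

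Il11, chr7:4778142-4778391, minus strand: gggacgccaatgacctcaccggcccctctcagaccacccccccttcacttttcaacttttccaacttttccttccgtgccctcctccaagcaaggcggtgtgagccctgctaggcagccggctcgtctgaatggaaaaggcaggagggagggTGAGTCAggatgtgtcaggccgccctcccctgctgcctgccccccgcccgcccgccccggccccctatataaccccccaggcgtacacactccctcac

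Lif, chr11:4257318-4257567, plus strand: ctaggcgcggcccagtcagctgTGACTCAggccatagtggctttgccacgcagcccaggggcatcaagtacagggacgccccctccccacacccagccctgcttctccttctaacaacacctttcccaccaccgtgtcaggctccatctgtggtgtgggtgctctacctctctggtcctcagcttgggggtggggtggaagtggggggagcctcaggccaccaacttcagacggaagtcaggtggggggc

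Socs3, chr11:117969367-117969616, minus strand: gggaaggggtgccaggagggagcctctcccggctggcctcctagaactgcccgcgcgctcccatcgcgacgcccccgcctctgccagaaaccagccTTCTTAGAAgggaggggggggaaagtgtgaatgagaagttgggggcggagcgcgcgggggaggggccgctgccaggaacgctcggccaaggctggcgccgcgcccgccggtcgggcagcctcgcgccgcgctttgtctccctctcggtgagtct

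The Il11 window carried TGAGTCA from 98 to 92 bases before the start, and the Lif window carried TGACTCA from 228 to 222 bases before the start. The Il6 window, not printed, held TGAGTCA from 249 to 243 bases before its start. Such a 7-letter AP-1 match occurred in 6.75% of the 32851 mouse windows of the same length. The Socs3 window carried TTCTTAGAA from 154 to 146 bases before the start, and 7.02% of all windows held a match to this motif. The cAMP response element, found in 1.55% of all windows, was not matched in the 12 windows, and the second RefSeq window of Il11, which lies farther upstream, held no match to any of these motifs. A match describes letters only, not a bound site, and FPKM values do not tell which start of Il11 was used.

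Il11 (ENSMUSG00000004371, chromosome 7, 4772373 to 4782857 on GRCm38) encodes interleukin-11, which signals through Il11ra1 and gp130. Its level was 2.19, 2.69 and 1.82 FPKM in the Ctrl libraries, 8.88, 6.73 and 6.10 in the Ep1 libraries, and 7.38, 7.52 and 11.5 in the Ep2 libraries. All treated libraries were above all Ctrl libraries, while Ep1 and Ep2 overlapped. These levels rest on 68 to 106 fragments in Ctrl, 227 to 330 in Ep1 and 283 to 383 in Ep2.

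The mean level of Il11 was 2.23 ± 0.438 FPKM across Ctrl, 7.24 ± 1.46 across Ep1 and 8.79 ± 2.32 across Ep2 (SD, n = 3 libraries each). The ratio of means was thus 3.24 for Ep1 and 3.93 for Ep2. On the log2(FPKM + 1) scale the fitted differences were 1.34 and 1.58, and they were 1.67 and 1.98 with voom on the recovered fragments, since a pseudocount of 1 shortens the change of a gene at this level. Because these contrasts selected the gene, they are given without a test. The contrast between the doses was not itself the rule, but it rests on the same Ep1 and Ep2 values that selected the gene. Its test is therefore not independent of the selection. Il11 did not pass there: the difference of Ep2 from Ep1 was 0.24 on the log2 scale (SE 0.18, 95% interval -0.18 to 0.66, adjusted p = 0.329 in limma). The interval leaves room for a further rise as well as for a small fall at the higher dose.

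**Figure D1:**
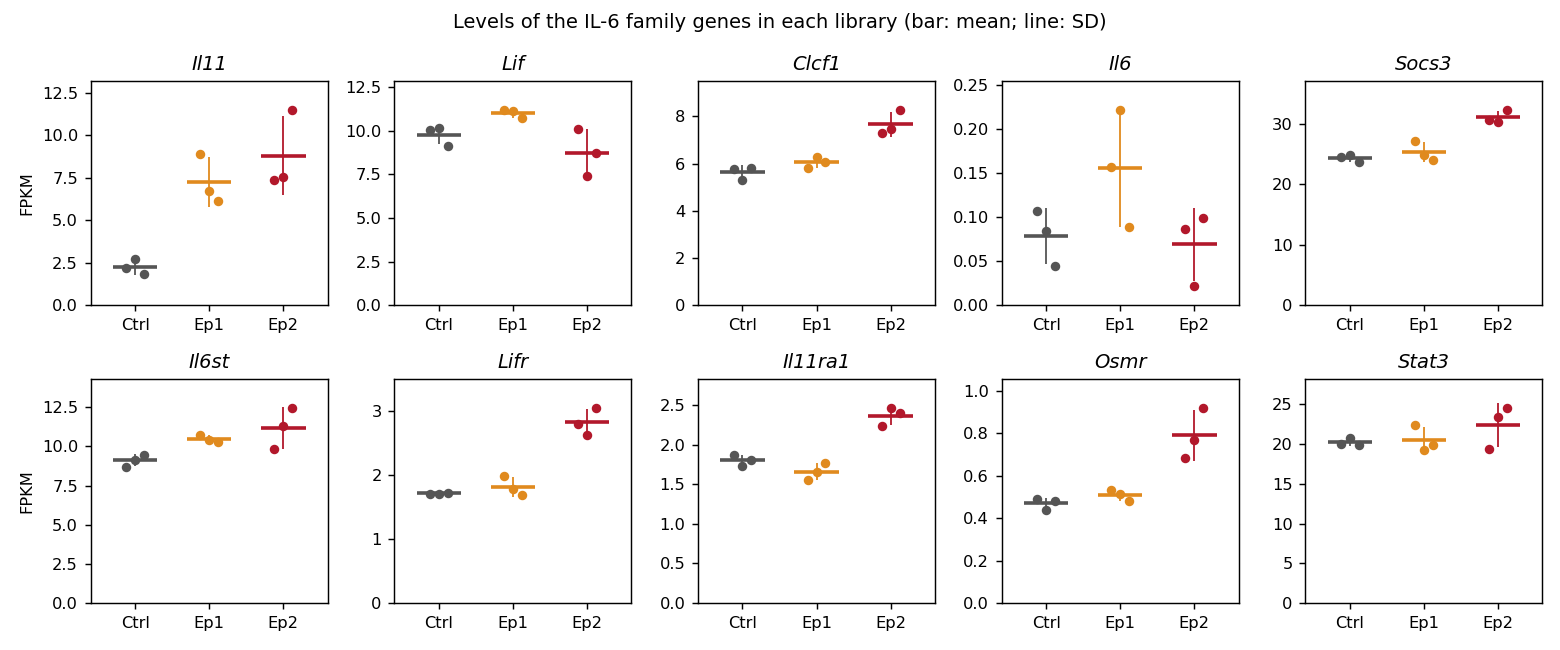
Level of each of the 10 family genes in FPKM (y axis, from 0, a separate scale per gene) in the Ctrl, Ep1 and Ep2 libraries (x axis); points are libraries, horizontal bars are means and vertical lines the SD of 3 libraries. Il11 stands at 1.82 to 2.69 FPKM in Ctrl and at 6.10 to 11.5 FPKM in the treated libraries, whereas Lifr, Il11ra1, Osmr, Clcf1 and Socs3 have all their Ep2 libraries above those of both other groups.

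The ligands of the family were next set on one scale, since FPKM is corrected for length. In Ctrl, Lif had the highest level of 10 ligand genes, followed by Clcf1, and their libraries were separate from each other and from the rest. Ctf1 at 2.29 ± 0.271 FPKM and Il11 at 2.23 ± 0.438 FPKM came next and overlapped. In Ep1, Il11 was above Clcf1 in mean level, with overlapping libraries, and below Lif, from which it was separate. In Ep2, Il11 at 8.79 FPKM, Lif at 8.73 FPKM and Clcf1 at 7.66 FPKM had overlapping libraries between neighbours, and Ctf1 was separate below them.

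The level of Il11 divided by that of Lif was 0.218, 0.266 and 0.199 in the Ctrl libraries, 0.795, 0.604 and 0.569 in Ep1, and 0.731, 1.02 and 1.32 in Ep2. Il11 made up 9.26% to 12.7% of the summed level of the 10 ligand genes in Ctrl, 23.7% to 31.7% in Ep1 and 27.6% to 37.6% in Ep2. The sum itself was 19.7 to 21.2 FPKM in Ctrl, 25.8 to 28.0 in Ep1 and 23.9 to 30.5 in Ep2. These shares include the selected gene and are a description.

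**Figure D2:**
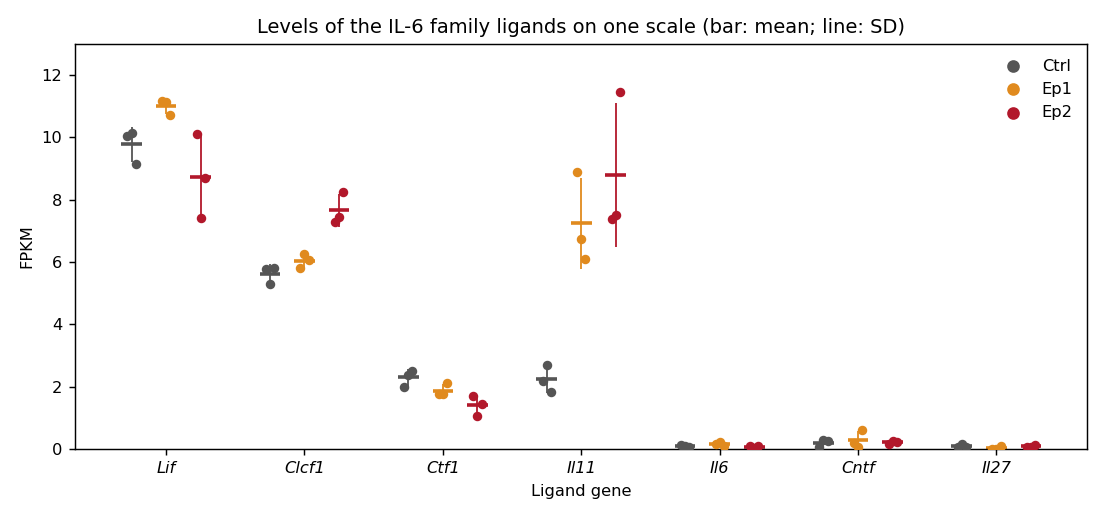
Levels of 7 ligand genes of the family on one axis in FPKM (y axis, from 0) for the Ctrl, Ep1 and Ep2 libraries (colours); points are libraries, bars means and lines SD, n = 3 each. Il11 lies beside Ctf1 in Ctrl and beside Lif and Clcf1 in Ep2, and Il6, Cntf and Il27 stay near 0 in every group.

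Lif (ENSMUSG00000034394, chromosome 11, 4257557 to 4272514) encodes leukemia inhibitory factor. It measured 10.0, 10.1 and 9.14 FPKM across Ctrl, 11.2, 11.1 and 10.7 across Ep1 and 10.1, 7.40 and 8.71 in Ep2. The Ep1 libraries were above all Ctrl and all Ep2 libraries, while Ep2 overlapped Ctrl. The log2 difference was 0.16 in Ep1 compared to Ctrl (adjusted p = 0.273) and -0.15 in Ep2 compared to Ctrl (adjusted p = 0.177), so neither dose passed against Ctrl in limma. Between the doses Lif was lower in Ep2 by -0.31 (SE 0.090, 95% interval -0.51 to -0.11, adjusted p = 0.019). This call is close to its threshold: the adjusted p was 0.0573 without a filter, 0.0519 without Ep1 replicate 1 and 0.0544 without Ep1 replicate 2. Without Ep2 replicate 1 the fall against Ctrl reached -0.25 with an adjusted p of 0.0142 in limma.

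Clcf1 (ENSMUSG00000040663, chromosome 19, 4214238 to 4223490) encodes cardiotrophin-like cytokine factor 1, which signals through the ciliary neurotrophic factor receptor. It had 5.78, 5.29 and 5.82 FPKM across Ctrl, 5.82, 6.26 and 6.05 across Ep1 and 7.28, 7.44 and 8.26 in Ep2. The Ep2 libraries were separate from both other groups. Its log2 difference was 0.38 in Ep2 compared to Ctrl (SE 0.060, adjusted p = 0.000556 in limma), 0.30 in Ep2 compared to Ep1 (adjusted p = 0.00336) and 0.09 in Ep1 compared to Ctrl (adjusted p = 0.36).

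Il6 (ENSMUSG00000025746, chromosome 5, 30013114 to 30019981), which encodes the founding cytokine of the family, was close to absent. It held 5, 4 and 2 fragments in Ctrl, 7, 9 and 4 in Ep1, and 4, 1 and 4 in Ep2, with overlapping groups and a highest level of 0.221 FPKM. It did not pass the filter of 1 FPKM in at least 3 libraries, and no difference was detectable at this depth.

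The shared receptor chain Il6st (ENSMUSG00000021756, chromosome 13, 112464070 to 112510086) was the most abundant receptor in Ctrl. It had 8.71, 9.15 and 9.48 FPKM across Ctrl, 10.7, 10.4 and 10.3 across Ep1 and 9.82, 11.3 and 12.5 in Ep2. Both treated groups were above Ctrl and overlapped each other. Il6st rose by 0.26 on the log2 scale in Ep2 (SE 0.074, adjusted p = 0.0136 in limma), with an adjusted p of 0.0505 without Ctrl replicate 1. In Ep1 the difference was 0.18 (adjusted p = 0.134), which passed only in the fit of Ep1 and Ctrl alone (adjusted p = 0.0298) and without Ep2 replicate 1 (adjusted p = 0.0356). Between the doses it was 0.08 (adjusted p = 0.409), and 0.16 (adjusted p = 0.0412) without Ep2 replicate 1.

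Lifr (ENSMUSG00000054263, chromosome 15, 7090614 to 7197489), the receptor chain for LIF, had 1.71, 1.71 and 1.72 FPKM across Ctrl, 1.99, 1.78 and 1.68 across Ep1 and 2.80, 2.63 and 3.05 in Ep2. Every Ep2 library was above every other library. Lifr had the largest log2 difference of the tested members other than Il11, 0.49 in Ep2 compared to Ctrl (SE 0.069, 95% interval 0.34 to 0.65, adjusted p = 0.000304) and 0.44 compared to Ep1 (adjusted p = 0.000849), both in limma. The ratio of means was 1.65 for Ep2 to Ctrl, and the difference was 0.75 with voom on the fragments, where the pseudocount plays no such role. In Ep1 it was 0.05 (adjusted p = 0.651).

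Il11ra1 (ENSMUSG00000073889, chromosome 4, 41699989 to 41769474) encodes the receptor chain for IL-11. It had 1.87, 1.73 and 1.81 FPKM across Ctrl, 1.55, 1.65 and 1.77 across Ep1 and 2.23, 2.46 and 2.40 in Ep2. The Ep2 libraries were above all others, and Ep1 overlapped Ctrl. The log2 difference was 0.26 in Ep2 compared to Ctrl (SE 0.066, adjusted p = 0.00756), 0.34 in Ep2 compared to Ep1 (adjusted p = 0.00266) and -0.08 in Ep1 compared to Ctrl (adjusted p = 0.479) in limma. The listed span of Il11ra1 overlaps 6 other listed genes, and whether counting used strand is not given in the sources used here, so this value is uncertain. The near copy Il11ra2, listed under 3 identifiers, held at most 2 fragments per library.

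Osmr (ENSMUSG00000022146, chromosome 15, 6813577 to 6874969), the receptor chain for oncostatin M, is a long gene and stayed under the FPKM filter although it held 104 to 185 fragments. It had 0.488, 0.439 and 0.480 FPKM across Ctrl, 0.532, 0.512 and 0.480 across Ep1 and 0.684, 0.768 and 0.920 in Ep2. All Ep2 libraries were above all others. The alternative fits that include it gave a log2 difference of 0.77 in Ep2 compared to Ctrl with voom on the fragments (SE 0.14, adjusted p = 0.00014) and of 0.28 without a filter (adjusted p = 0.0218). Between the doses it was 0.67 with voom (adjusted p = 0.000702) and 0.25 without a filter (adjusted p = 0.0489, close to the threshold). In Ep1 compared to Ctrl it was 0.10 with voom (adjusted p = 0.723).

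Among receptor chains, the order in Ctrl was Il6st, Il6ra, Il11ra1, Lifr and Osmr, each separate from the next except that Osmr overlapped Il27ra below it. In Ep1, Lifr and Il11ra1 overlapped. In Ep2 the order was Il6st, Il6ra, Lifr, Il11ra1 and Osmr, with Il6st at 11.2 ± 1.32 FPKM and Il6ra at 10.7 ± 0.794 FPKM overlapping. Cntfr, the receptor chain for Clcf1, held 0 fragments in all 9 libraries, where a count of 0 allows up to 3 fragments in each for counting error alone.

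Stat3 (ENSMUSG00000004040, chromosome 11, 100885098 to 100939540), the main transcription factor downstream of gp130, had 20.0, 20.8 and 20.0 FPKM across Ctrl, 22.4, 19.3 and 19.9 across Ep1 and 19.3, 23.4 and 24.6 in Ep2. The groups overlapped. Its log2 difference was 0.14 in Ep2 compared to Ctrl (SE 0.086, 95% interval -0.06 to 0.33, adjusted p = 0.211) and 0.02 in Ep1 (adjusted p = 0.918) in limma. One library decided the first of these: without Ep2 replicate 1 the difference was 0.23 (adjusted p = 0.0117), and that from Ep1 went from 0.12 (adjusted p = 0.291) to 0.22 (adjusted p = 0.0205). RNA levels do not show the phosphorylation on which STAT3 activity depends. The end of Stat3 overlaps Stat5a on the other strand by 72 bases.

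Socs3 (ENSMUSG00000053113, chromosome 11, 117966079 to 117970047) is a direct target of STAT3 and was the most abundant of the 10 genes. It had 24.6, 24.8 and 23.6 FPKM across Ctrl, 27.2, 24.9 and 24.0 across Ep1 and 30.7, 30.4 and 32.3 in Ep2. The Ep2 libraries were separate from both other groups, which overlapped. Socs3 rose by 0.34 in Ep2 compared to Ctrl (SE 0.052, adjusted p = 0.000493) and by 0.29 compared to Ep1 (adjusted p = 0.00188), while in Ep1 the log2 difference from Ctrl was 0.05 (adjusted p = 0.52).

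Counted together, 8 of the 10 genes passed the filter, each with at least 1 FPKM in all 9 libraries, and Il6 and Osmr did not. Of the 7 tested genes other than Il11, 5 rose in Ep2 compared to Ctrl (Clcf1, Il6st, Lifr, Il11ra1 and Socs3, log2 differences of 0.26 to 0.49), while 53.2% of the 11727 tested genes were called in this comparison, 23.9% higher and 29.3% lower. The median log2 difference of the 7 genes was 0.26 and that of all tested genes -0.03. The same 5 genes had Ep2 libraries entirely above the Ctrl libraries, as had 27.0% of all tested genes. Changes of this size were common in Ep2, and with the stated minimum of 0.6 on the log2 scale, which 9.17% of all tested genes passed with the adjusted p, the largest difference among the 7 genes, that of Lifr, fell short on the log2(FPKM + 1) scale, although it was 0.75 with voom (adjusted p = 6.76e-07). With voom, 6 of 8 genes were called (Osmr is the added one), against 50.0% of all genes tested there. Without Ep2 replicate 1, 7 genes were called, Lif lower and Stat3 higher. Over all genes, the count called was 6236 with all libraries and 5341 to 6400 with a library left out.

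In Ep1 compared to Ctrl, 0 of these 7 genes were called in limma, against 11.3% of all tested genes (6.32% higher, 4.97% lower, and 0.793% with the minimum of 0.6), with 1 gene (Il6st) at an unadjusted p under 0.05 and 0 of 8 genes called with voom, against 14.1% of all genes. The Ep1 libraries of 3 genes (Lif, Clcf1 and Il6st) lay above all Ctrl libraries, as did those of 20.8% of all tested genes. The median log2 difference was 0.05, against -0.01 over all tested genes. In Ep2 compared to Ep1, 4 of the 7 genes were higher (Clcf1, Lifr, Il11ra1 and Socs3) and 1 was lower (Lif), against 44.0% of all tested genes called, 18.8% higher and 25.2% lower, and 5.90% with the minimum of 0.6. The libraries of these genes did not overlap between the doses, as for 24.1% of all tested genes on the higher side and 30.3% on the lower. With voom 6 of 8 genes were called, against 42.2% of all genes. The comparisons with Ctrl share the same 3 Ctrl libraries.

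**Figure D3:**
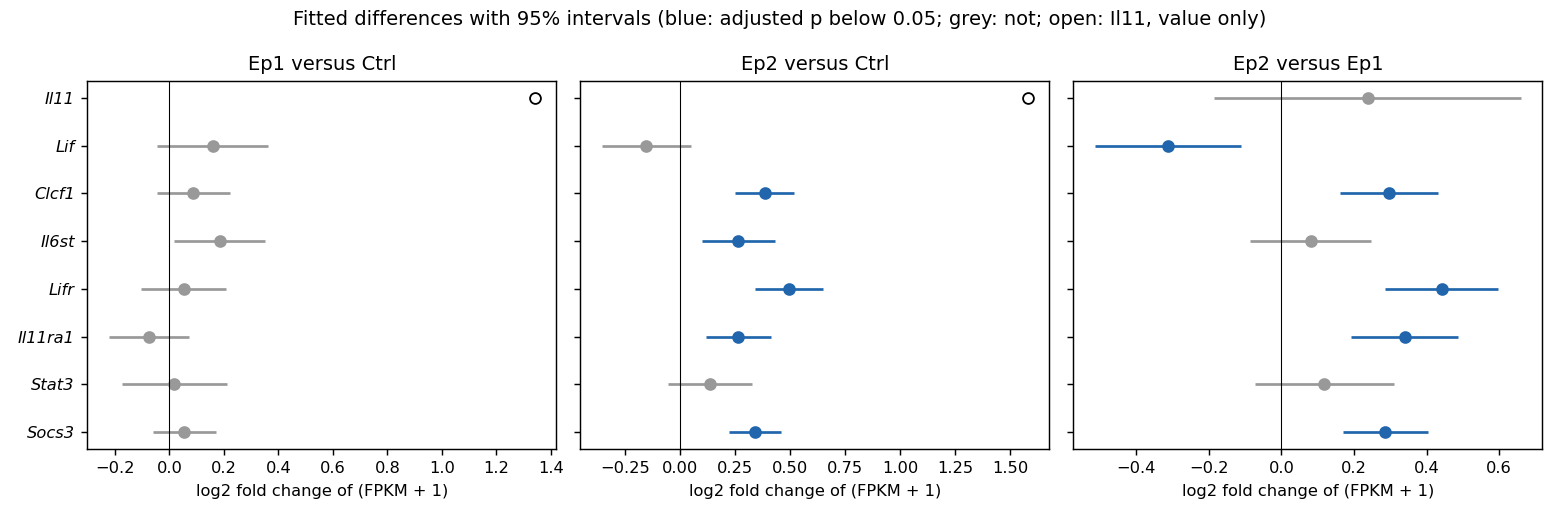
Fitted log2 differences of (FPKM + 1) (x axis) of the 8 tested family genes (y axis) in the 3 comparisons; lines are 95% intervals, blue points have an adjusted p below 0.05 in limma, grey ones do not, and the open points of Il11 against Ctrl are values without interval or test. The points of the other genes in Ep1 lie between -0.08 and 0.18, those in Ep2 between -0.15 and 0.49, and Lif is the gene on the negative side between the doses.

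Other genes of the pathway were taken from short lists of 59 genes, of which 44 passed the filter. In Ep2 compared to Ctrl, 15 of the 44 rose and 6 fell (47.7% called, against 53.2% of all tested genes), with a median log2 difference of 0.11. In Ep1, 5 rose and 3 fell (18.2%, against 11.3%), and in Ep2 compared to Ep1, 10 were higher and 2 lower (27.3%, against 44.0%). The count in Ep1 rested on single libraries, with 0 genes called without Ctrl replicate 2, 1 each without Ctrl replicate 1, Ep1 replicate 1 and Ep1 replicate 3, 3 without Ep1 replicate 2, 4 without Ep2 replicate 2, 5 without Ctrl replicate 3 and 13 without Ep2 replicate 1. Between the doses, 7 genes were called without Ep1 replicate 2.

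Among further cytokine genes, Ctf1, which encodes cardiotrophin-1, was lower in Ep2 (1.40 ± 0.324 FPKM) than in Ctrl (2.29 ± 0.271 FPKM) by -0.46 on the log2 scale (adjusted p = 0.00654 in limma), with 1.87 ± 0.195 FPKM in Ep1. Osm and Il31 held 0 fragments in all libraries, Il27 and Ebi3 at most 3, Ctf2 at most 7 and Cntf at most 12.

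Of 5 further receptors, Il6ra alone passed the filter. Il6ra, the private chain of the IL-6 receptor, had 5.97, 6.32 and 6.06 FPKM across Ctrl, 7.23, 6.59 and 7.15 across Ep1 and 9.82, 11.4 and 10.9 in Ep2. The 3 groups did not overlap. Its log2 difference was 0.71 in Ep2 compared to Ctrl (SE 0.061, adjusted p = 1.95e-05 in limma), 0.55 in Ep2 compared to Ep1 (adjusted p = 0.000126) and 0.17 in Ep1 compared to Ctrl (adjusted p = 0.106). The receptor thus rose in Ep2 while its ligand Il6 stayed at no more than 4 fragments there.

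All 9 listed kinases and adaptors passed the filter, and 3 rose and 2 fell in Ep2 (55.6% called, against 53.2% of all tested genes). Jak1, the kinase that gp130 relies on most, averaged 31.5 ± 0.127 FPKM across Ctrl, 34.7 ± 1.42 across Ep1 and 42.1 ± 2.05 across Ep2 (mean ± SD of 3 libraries), a log2 difference of 0.40 in Ep2 (adjusted p = 0.000102 in limma). Jak2 rose from 14.7 ± 0.642 to 19.4 ± 1.33 FPKM in Ep2 (0.38, adjusted p = 0.00062), and Sos1, an exchange factor that leads to RAS, rose by 0.28 (adjusted p = 0.00609). Ptpn11, which encodes the phosphatase SHP2 that links gp130 to RAS, had a log2 difference of -0.18 (adjusted p = 0.0047), a fall from 31.0 ± 0.773 to 27.3 ± 0.815 FPKM. In Ep1, 0 of the 9 genes were called in limma, and Jak1 (adjusted p = 0.0928) and Jak2 (adjusted p = 0.114) had their Ep1 libraries between the Ctrl and the Ep2 libraries.

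Of 9 negative regulators, 1 rose and 1 fell in Ep2 (22.2% called, against 53.2% of all tested genes). Socs5, a relative of Socs3, averaged 31.6 ± 0.507 FPKM across Ctrl, 33.3 ± 1.47 across Ep1 and 41.1 ± 2.12 across Ep2 (log2 difference in Ep2 0.37, adjusted p = 0.000224 in limma). Ptpn1, a phosphatase acting on JAK2, fell by 0.10 in Ep2 (adjusted p = 0.0469), a call that voom did not make (adjusted p = 0.269). In Ep1, 1 of the 9 rose and 1 fell (22.2% called, against 11.3% of all tested genes). The one that rose was Ptpn2, a phosphatase that acts on JAK1 and STAT proteins (0.22, adjusted p = 0.048 in limma). That call was not made without a filter (adjusted p = 0.129). In Ep2, Ptpn2 had 0.10 (adjusted p = 0.194) and Cish, another SOCS relative, had 0.15 (adjusted p = 0.223). Of 4 genes of receptor shedding, Adam10, a protease that releases soluble IL-6 receptor, rose by 0.24 in Ep2 (adjusted p = 0.00697), Rhbdf1 fell at both doses (-0.20 with adjusted p = 0.0367 in Ep1, -0.22 with adjusted p = 0.00492 in Ep2), and Adam17 and Rhbdf2 had 0.03 and -0.01 in Ep2 (adjusted p = 0.504 and 0.808).

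The list of known STAT3 target genes held 19 genes, many of which answer to other factors as well. Of the 14 that passed the filter, 7 rose and 1 fell in Ep2, with a median log2 difference of 0.27, and 2 rose and 1 fell in Ep1, with a median of 0.15. These are 57.1% called in Ep2, against 53.2% of all tested genes, and 21.4% in Ep1, against 11.3%. Myc had 3.07, 3.50 and 3.47 FPKM across Ctrl, 4.60, 3.58 and 4.04 across Ep1 and 6.10, 5.84 and 6.05 in Ep2 (log2 difference in Ep2 0.69, adjusted p = 8.58e-05 in limma). Cebpb, a factor of the acute-phase response, rose at both doses, from 48.8 ± 2.28 FPKM in Ctrl to 71.5 ± 8.08 in Ep1 (0.54, adjusted p = 0.0168) and 73.5 ± 9.84 in Ep2 (0.57, adjusted p = 0.0015). The survival gene Mcl1 likewise rose in Ep1 (0.23, adjusted p = 0.034) and Ep2 (0.33, adjusted p = 0.000957). Ccnd1, a G1 cyclin, fell in Ep2 (-0.23, adjusted p = 0.00493). The acute-phase genes Saa3, Serpina3n, Lrg1 and Lcn2 and the adhesion gene Icam1, named here after their values were seen, did not pass the filter.

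Of the 7 AP-1 subunits, whose motif stands in the Il11 window above, all passed the filter, 2 rose in Ep1 and 1 rose in Ep2. These are 28.6% called in Ep1, against 11.3% of all tested genes, and 14.3% in Ep2, against 53.2%. The Ep1 libraries of 6 of them lay entirely above the Ctrl libraries, as did those of 20.8% of all tested genes. In Ep2 this held for 2 of the 7 subunits, against 27.0% of all tested genes. Compared to Ep1, 3 subunits had all Ep2 libraries lower and 0 had all higher, against 30.3% and 24.1% of all tested genes. Between the doses 1 subunit was called, lower in Ep2 (14.3%, against 44.0%). Fosl2 averaged 5.54 ± 0.228 FPKM across Ctrl, 8.53 ± 1.28 across Ep1 and 8.48 ± 0.826 across Ep2 (mean ± SD of 3 libraries) and rose at both doses, by 0.54 (adjusted p = 0.0126) and 0.53 (adjusted p = 0.00131) in limma. Jund rose in Ep1 (0.50, adjusted p = 0.0425), with 0.23 in Ep2 (adjusted p = 0.171). Fosb had 0.881, 0.843 and 0.845 FPKM across Ctrl, 10.9, 2.44 and 3.17 across Ep1 and 1.55, 1.31 and 3.64 in Ep2. Neither dose passed for Fosb in limma (adjusted p = 0.0652 and 0.24). Fosb reached the filter of 1 FPKM only through treated libraries. Its place above Ctrl, which enters the counts of libraries without overlap, was thus partly fixed by the filter. Junb had 0.20 in Ep1 (adjusted p = 0.262) and 0.26 in Ep2 (adjusted p = 0.069).

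**Figure D4:**
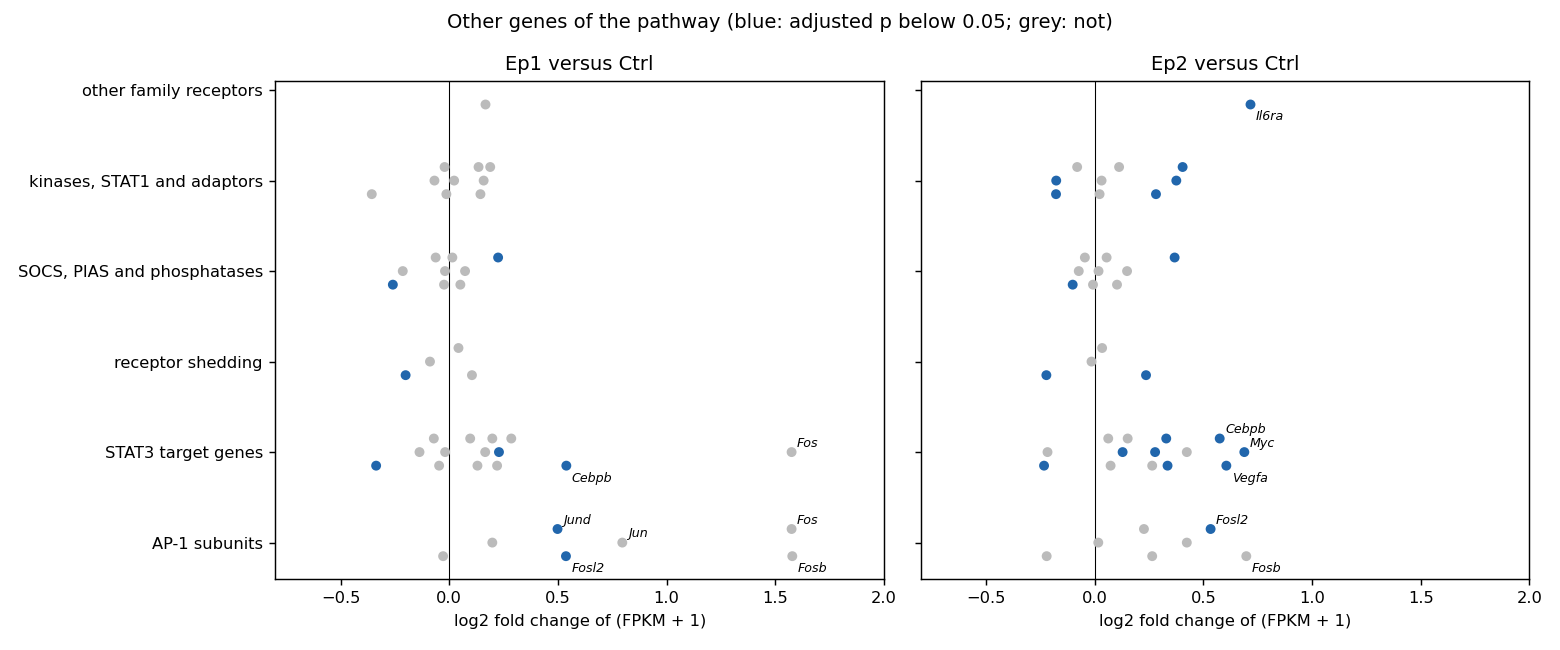
Fitted log2 differences of (FPKM + 1) (x axis) of the tested genes in 6 pathway lists without the cytokines (y axis) for Ep1 and Ep2 compared to Ctrl; each point is a gene, blue with an adjusted p below 0.05 in limma and grey otherwise, with names at the largest differences, and a gene in 2 lists is shown in both. In Ep2, Il6ra stands at 0.71, and in Ep1 the points farthest out, at 1.57 and 1.58, are grey.

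Finally, the genes whose pattern over the 9 libraries was most like that of Il11 were listed, as a description. Over 11343 genes, the 5 highest Pearson correlations of log2(FPKM + 1) were those of Dyrk1a (0.981), Jmjd1c (0.978), Ist1 (0.978), Pnrc1 (0.977) and Phlda1 (0.976). Each of them was higher in all treated libraries than in all Ctrl libraries, and Pnrc1, a nuclear receptor coactivator, moved farthest of the 5, with 19.9 ± 1.31 FPKM across Ctrl, 33.5 ± 4.26 across Ep1 and 37.6 ± 4.12 across Ep2. Phlda1 went from 11.0 ± 0.366 to 15.6 ± 1.90 and 16.0 ± 1.60 FPKM, and the kinase gene Dyrk1a from 4.44 ± 0.183 to 5.83 ± 0.253 and 5.98 ± 0.339 FPKM.

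The most negative correlations were those of the pseudogene Tmem250-ps (-0.980), whose reads may be shared with its parent gene, Pbx2 (-0.973), 1700066M21Rik (-0.972), Klhl22 (-0.971) and Btbd6 (-0.966). Klhl22, an adaptor of a ubiquitin ligase, went from 30.9 ± 0.826 FPKM in Ctrl to 24.0 ± 1.28 in Ep1 and 23.7 ± 1.04 in Ep2. The 9 libraries form 3 groups and share their group differences, so high correlations arise for many genes that differ from Ctrl at both doses, and they say nothing of shared control.

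**Figure D5:**
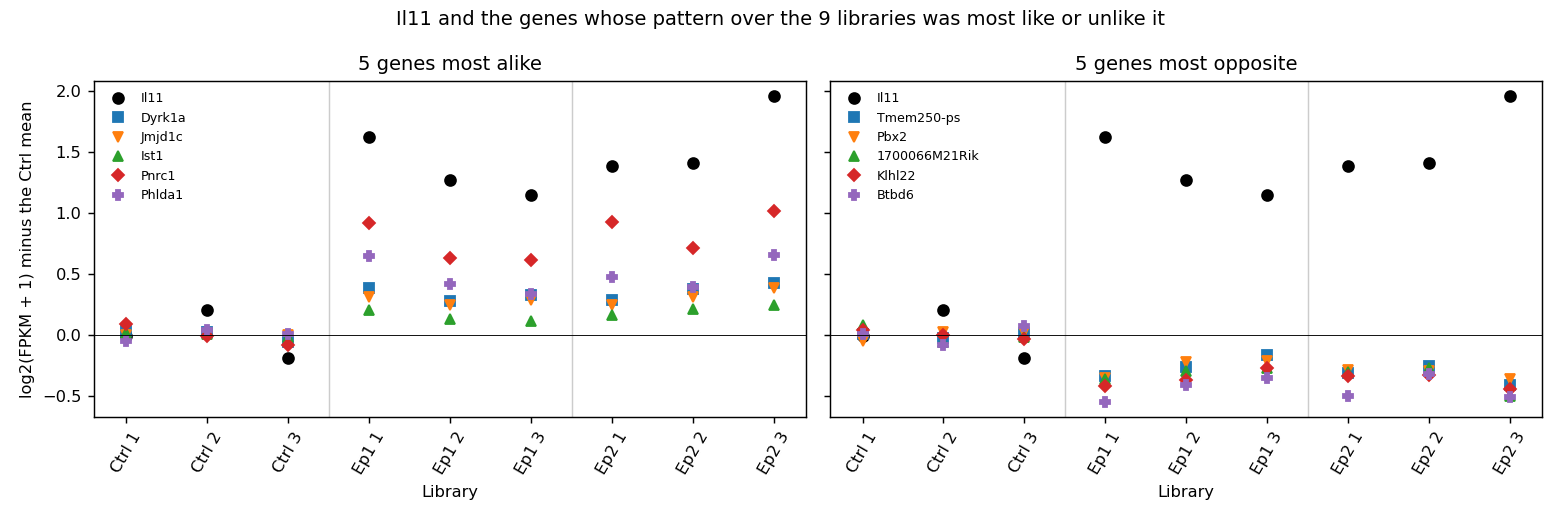
log2(FPKM + 1) minus the Ctrl mean (y axis) in each of the 9 libraries (x axis) for Il11 (black) and the 5 genes with the highest (left) or most negative (right) correlation with it; each point is a library. In the treated libraries Il11 lies above the Ctrl mean by more than any of the 5 genes alike, of which Pnrc1 comes nearest, and the 5 opposite genes lie below their Ctrl means.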

How the data were processed

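Expression was measured by paired-end RNA sequencing of 9 B.END3 libraries (3 each of Ctrl, Ep1 and Ep2, grouped by their titles). After alignment to a mouse genome build, the authors deposited 1 FPKM value per gene and library. The submitters' processing notes name Bowtie 0.12.2 and build mm8 and the methods GRCm39, while the listed coordinates overlap the RefSeq GRCm38.p6 gene for 99.9% of 37620 genes compared, so they are given as GRCm38. The counting tool is not given in the sources used here. The 9 single-library tables equal the joint table.

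FPKM times gene length gave whole multiples of a step per library (within 0.05 of a whole number) and thus fragments, and 3 fragments is the limit a count of 0 allows. log2(FPKM + 1) of the 11727 genes that reached 1 FPKM in 3 or more libraries was fitted with limma 3.58.1 (R 4.3.3; trend and robust estimation, statmod 1.5.0; no covariate) over all libraries, with Benjamini-Hochberg adjustment over all tested genes in each comparison, and called at an adjusted p below 0.05. The fit was tested on simulated data. Alternatives were a pseudocount of 0.1, no filter, a filter of 5 FPKM, median centring, a replicate block, only the groups compared, limma voom on fragments (at least 10 in at least 3 libraries, upper-quartile scaling), a minimum log2 difference of 0.6 and the omission of each library. All 10 members are named, and pathway genes by the smallest adjusted p in Ep2 compared to Ctrl, up to 4 a list, with the 5 genes most and least correlated with Il11. Some genes counted in the lists are not reported here by name. Members, lists and tests were chosen with earlier results of these data known. Tables and plots used Python 3.11.15 with pandas 2.3.3, numpy 2.4.6 and matplotlib 3.10.9.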

Additional observations from a re-analysis of the deposited data

Results flagged for a closer look

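For Lif and Il11ra1 the fitted differences from Ctrl pointed in opposite directions at the 2 light doses and the doses differed from each other in limma. Lif was above Ctrl in Ep1 and below it in Ep2, with a difference of -0.31 on the log2 scale between Ep2 and Ep1 (adjusted p = 0.019, lower in 3 of 3 libraries). Il11ra1 was below Ctrl in Ep1 and above it in Ep2, with a difference of 0.34 (adjusted p = 0.00266, higher in 3 of 3 libraries). For Lif neither difference from Ctrl passed by itself, and for Il11ra1 only that of Ep2 did.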

How the results depend on the processing

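The rises of Clcf1, Lifr, Il11ra1 and Socs3 in Ep2, against Ctrl and against Ep1, kept their direction and an adjusted p below 0.05 in every alternative that could test them. In Ep1 compared to Ctrl, the Il11 difference of 1.34 became 1.65 with a pseudocount of 0.1, and in Ep2 1.58 became 1.92. Stat3 changed sign in Ep1 without Ep1 replicate 1 (-0.0445, adjusted p = 0.802), with 0.0578 as the highest value with a library left out. Of the family genes other than Il11, 1 was called in Ep1 (0 to 1 with a library left out) when only the groups compared were fitted. In Ep2 compared to Ctrl the count was 3 under the filter of 5 FPKM, where only 5 of them are tested, and 4 to 7 with a library left out. In Ep2 compared to Ep1 it was likewise 3 under that filter and 4 to 7 with a library left out. Over all genes, the counts in these comparisons were 5341 to 6400 and 4123 to 5184 with a library left out, against 6236 and 5156 with all libraries. The minimum of 0.6 on the log2 scale left 0 of the family genes other than Il11 in each limma comparison. Their largest difference was 0.49 on the log2(FPKM + 1) scale.

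For pathway genes in Ep1, the count was 1 without a filter, 14 with only the groups compared, 0 with the minimum of 0.6 and 0 to 13 with a library left out. The minimum of 0.6 left 4 in Ep2 compared to Ctrl and 3 in Ep2 compared to Ep1, where the range with a library left out was 7 to 16. Over all genes in Ep1, the count of 1324 became 396 without a filter, 1992 with voom, 2217 with only the groups compared, 93 with the minimum of 0.6, and 192 (without Ctrl replicate 2) to 2192 (without Ep2 replicate 1) with a library left out. The minimum of 0.6 left 1075 genes in Ep2 compared to Ctrl and 692 in Ep2 compared to Ep1. The causes of these moves were not tested.

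Same-numbered libraries of different groups did not deviate together (correlations of -0.06 to 0.07, against -0.11 to 0.15 for other pairs). The numbers thus gave no sign of a pairing, which correlations over so few libraries cannot exclude. With the replicate block the counts of called family genes were 0, 5 and 5 in the 3 comparisons, as without it. The depth limits Il6, with at most 9 fragments in a library, for which no difference was detectable.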
